A study of Mus musculus with 18 samples.

Results

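The 10 genes described here encode tissue inhibitors of metalloproteinases (TIMPs) and proteases of the extracellular matrix and cell surface. They are the inhibitors Timp1, Timp2 and Timp3, the gelatinases Mmp2 and Mmp9, the membrane-type matrix metalloproteinases Mmp14 and Mmp15, the ADAMTS proteases Adamts1 and Adamts4, and the sheddase Adam17. They were taken by symbol from the 23420 gene symbols of the count tables. All 10 were among the 15196 genes that passed the filter on low counts, and the lowest count of any of them was 7, for Timp1 in TD139 mouse 3. The genes were chosen by their symbols and roles and selected on counts of these same mice whose differences between the groups were already known, so their fold changes and adjusted p-values are given as a description of the selected genes.

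The mice were young adult wild-type BALB/cJ animals, an albino strain whose photoreceptors degenerate under bright light. The study as a whole used both sexes, and the sex of single mice was not used here. Naïve mice (n = 3) had neither light exposure nor treatment. Vehicle-treated mice (n = 3) were exposed to white light of 15000 lux for 1 h and received daily intraperitoneal DMSO from the day before the light. TD139-treated mice (n = 3) had the same light and received 15 mg/kg of TD139, a small-molecule inhibitor of the β-galactoside-binding lectin galectin-3, in DMSO. Whole retinas were taken 4 days after the light. Vehicle-treated mice differed from naïve mice in both the light and the injections, and these cannot be told apart. The groups are called naïve, vehicle and TD139 mice below. TD139-treated mice were compared with the same vehicle-treated mice, so the comparisons of vehicle with naïve and of TD139 with vehicle share 3 mice.

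Matrix metalloproteinases are zinc-dependent enzymes that are made as inactive precursors and cut collagens, other matrix proteins and cell-surface molecules. TIMPs bind to their active sites and block them, and TIMP2 also docks the precursor of MMP2 on MMP14 (MT1-MMP) at the cell surface, where it is activated. ADAMTS proteases cut matrix proteoglycans such as versican and aggrecan, and ADAM proteases release membrane-bound cytokines and receptors. In the retina, this system acts on the interphotoreceptor matrix, the inner limiting membrane and Bruch's membrane, where TIMP3 is deposited by the retinal pigment epithelium.

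Each mouse had between 26171887 and 30201517 reads counted on genes. Levels are given as CPM, the usual scaling of a gene's count to a common library size, here with TMM factors, and 3 counts, taken as the limit of detection for counting error only, stood for 0.0993 to 0.115 CPM before the TMM factors were applied. The tissue label was met, as the 8 rod markers summed to between 39474 and 77101 CPM and none of them was at 0 in any mouse. The 12 microglia and macrophage markers summed to 40.6 to 44.5 CPM in naïve, 229.7 to 471 CPM in vehicle and 28.1 to 139 CPM in TD139 mice. Vehicle mouse 2 stood apart in lens and fibroblast genes. Its 7 lens markers summed to 10965 CPM, against 39.4 to 515 CPM in the other mice, and its 6 fibroblast markers to 84.3 CPM, against 18.0 to 32.6 CPM. TD139 mouse 1 had the highest microglia and macrophage sum of its group, at 139 CPM against 31.4 and 28.1 CPM. Values without vehicle mouse 2 or TD139 mouse 1 are given below beside the calls of the 10 genes that they change. All values come from whole tissue, in which fewer cells of a type and less RNA per cell cannot be told apart.

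**Figure D1:**
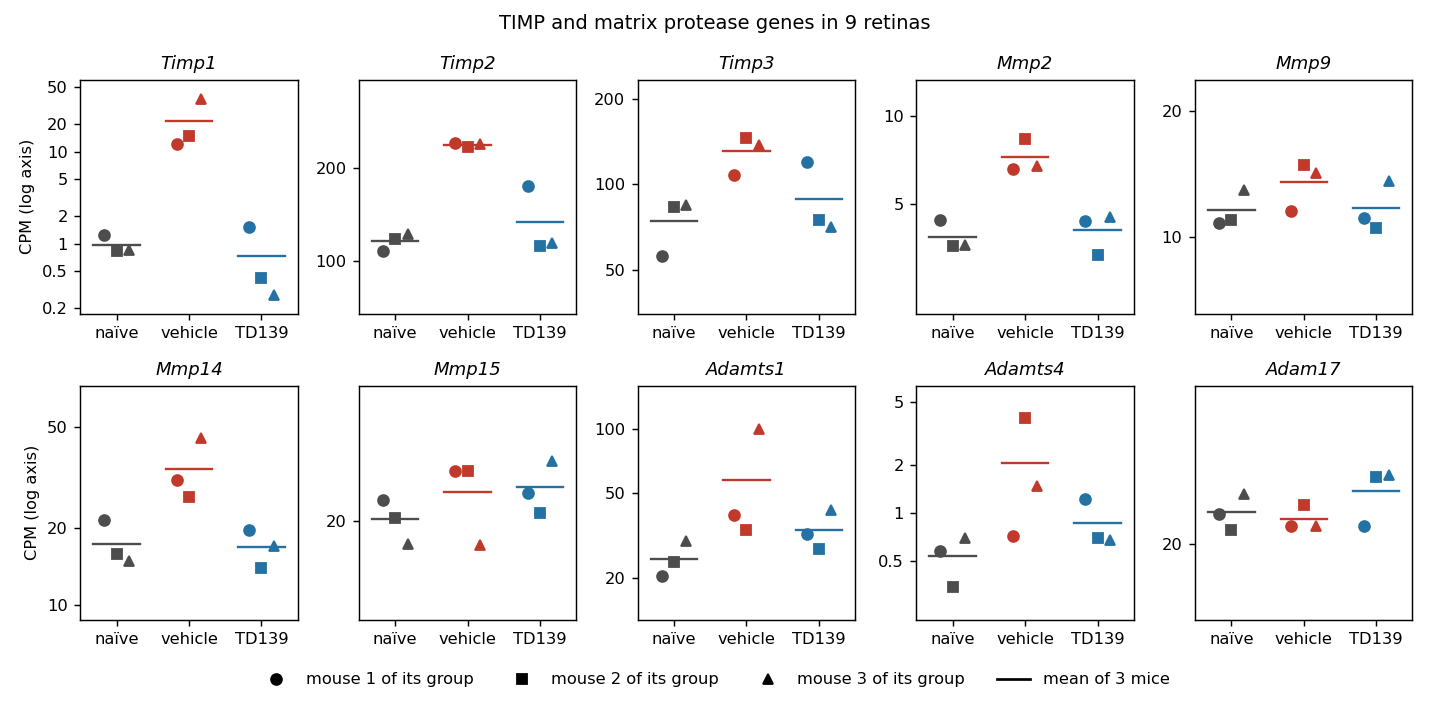
CPM of each of the 10 genes (log axis, a scale of its own in each panel) in each of the 9 mice. Symbols mark the mouse number within a group, and lines mark the mean of 3 mice. The 3 vehicle mice lie above all naïve and TD139 mice for Timp1, Timp2, Mmp2 and Mmp14, whereas the groups overlap for Mmp9, Mmp15 and Adam17.

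Timp1, which encodes a secreted inhibitor of most matrix metalloproteinases and is known as a gene of reactive glia, lies at chrX:20870166-20874735 (plus strand, GRCm38). It had 32, 22 and 23 counts in naïve mice, 335, 423 and 1121 in vehicle mice, and 41, 12 and 7 in TD139 mice. These correspond to 1.23, 0.829 and 0.843 CPM in naïve mice, 12, 14.9 and 37.7 CPM in vehicle mice, and 1.52, 0.418 and 0.277 CPM in TD139 mice. All vehicle mice were higher than any other mouse, vehicle mouse 3 was the highest, and the naïve and TD139 mice overlapped. The mean was 21.5 ± 14.1 CPM (SD, n = 3) in vehicle, 0.967 ± 0.227 CPM in naïve and 0.738 ± 0.681 CPM in TD139 mice. In edgeR's quasi-likelihood fit of all genes, the log2 fold change was 4.47 ± 0.66 (SE, adjusted p = 0.0171) for vehicle against naïve and −4.86 ± 0.68 (adjusted p = 0.00568) for TD139 against vehicle. TD139 against naïve gave −0.38 ± 0.69, with a 95% interval from −1.97 to 1.20, and −1.44 without TD139 mouse 1. The first call was lost when naïve mouse 1, 2 or 3 was left out, with adjusted p of 0.0600, 0.0788 and 0.0619, whereas the second was kept in each of the 9 fits that left out 1 mouse. Over those fits the log2 fold changes were 3.79 to 4.77 and −5.93 to −4.18. Timp1 lies within the neuronal gene Syn1 on the opposite strand, without a shared exonic base, and Syn1 itself had 157 to 169.7 CPM in naïve, 174 to 226 in vehicle and 167 to 205 in TD139 mice.

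The sequences before the start of Timp1, Mmp14 and Adamts1 are shown because these are the members with their highest level in vehicle mouse 3, a choice made after the values were seen. Each holds the 250 bases before the RefSeq start on GRCm38.p6, 5′ to 3′ on the strand of the gene, at chrX:20869916-20870165 (plus), chr14:54431348-54431597 (plus) and chr16:85803114-85803363 (minus). Capitals mark GGGCGG, the core of the site for Sp1, or its complement.
Timp1: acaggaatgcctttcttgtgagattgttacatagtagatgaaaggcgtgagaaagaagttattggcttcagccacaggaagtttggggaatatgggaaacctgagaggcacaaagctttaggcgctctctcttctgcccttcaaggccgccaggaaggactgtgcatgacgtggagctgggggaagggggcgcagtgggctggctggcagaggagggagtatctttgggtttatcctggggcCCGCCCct
Mmp14: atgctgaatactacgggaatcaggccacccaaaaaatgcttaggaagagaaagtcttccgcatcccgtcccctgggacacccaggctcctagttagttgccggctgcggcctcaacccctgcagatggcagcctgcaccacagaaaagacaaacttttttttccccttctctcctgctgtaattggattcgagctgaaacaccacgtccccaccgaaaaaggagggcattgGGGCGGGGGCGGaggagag
Adamts1: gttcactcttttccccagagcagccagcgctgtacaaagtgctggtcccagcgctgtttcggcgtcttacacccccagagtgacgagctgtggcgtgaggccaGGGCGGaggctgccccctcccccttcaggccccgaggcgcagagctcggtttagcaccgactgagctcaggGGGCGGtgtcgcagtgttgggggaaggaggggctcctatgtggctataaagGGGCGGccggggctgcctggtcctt
Timp1 had 1 match, which ends 3 bases before the start, Mmp14 had 2 adjoining matches and Adamts1 had 3. Of all 32851 promoter windows of this length, 32.7% held GGGCGG on either strand. None of the 3 windows held TGANTCA (AP-1, in 6.75% of all windows), TTCNNNGAA (STAT, 7.02%) or TGATGNAA (ATF4, 3.45%) on either strand. The same held for the windows of Timp2, Timp3, Mmp15 and Adam17, each of which had 1 GGGCGG. Of the 10 genes, 7 had an entry in the RefSeq table used, and Mmp2, Mmp9 and Adamts4 had none. A match is a stretch of letters, and no match says only that these letters are not in this window.

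Timp2 (chr11:118301069-118355740, minus strand), the inhibitor that also takes part in activating MMP2, had the most even levels of the 10 genes in naïve and in vehicle mice. Naïve mice had 108, 118 and 122 CPM, vehicle mice 242, 234 and 239 CPM, and TD139 mice 175, 112 and 114 CPM. The vehicle mice did not overlap with either of the other groups, and TD139 mouse 1 lay between its group and the vehicle mice. The standard deviation was 1.71% of the mean in vehicle mice, 6.25% in naïve and 27.0% in TD139 mice. Its log2 fold change was 1.04 ± 0.15 (adjusted p = 0.0127) for vehicle against naïve and −0.83 ± 0.15 (adjusted p = 0.00603) for TD139 against vehicle. For TD139 against naïve it was 0.20 ± 0.15, with a 95% interval from −0.13 to 0.54. Without naïve mouse 2 the adjusted p for vehicle against naïve was 0.0651.

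Timp3 (chr10:86300372-86349506, plus strand) encodes the TIMP that stays bound to matrix and that also inhibits ADAM17 and ADAMTS proteases. Its levels were 56.1, 83.2 and 84.3 CPM in naïve, 108, 146 and 138 CPM in vehicle, and 120.0, 75.2 and 70.9 CPM in TD139 mice. Vehicle mice lay above naïve mice, whereas TD139 mouse 1 exceeded vehicle mouse 1. The log2 fold changes of 0.81 ± 0.23 (adjusted p = 0.0588) for vehicle against naïve and −0.56 ± 0.23 (adjusted p = 0.0824) for TD139 against vehicle were not called. Without TD139 mouse 1 both were called, with adjusted p of 0.0108 and 0.00653 and log2 fold changes of 0.82 and −0.84. Of 12 alternative fits that left out no single mouse, 5 called the first and 3 the second. Among them were DESeq2 (adjusted p = 0.00316 and 0.0291) and limma (0.0237 and 0.0126). The summed markers of the retinal pigment epithelium were 141 to 274 CPM in naïve, 231 to 495 in vehicle and 133 to 219 in TD139 mice, with vehicle mouse 2 the highest for both these markers and Timp3. Of these markers, 10 passed the filter, 0 were called for vehicle against naïve, beside 4.91% of all genes higher and 2.89% lower, and 2 were called lower for TD139 against vehicle, beside 16.2%. In all mice most of the sum came from Ttr and Rgr, and the markers' part in the result was not tested. Timp3 shares 1733 of its 8144 exonic bases with Syn3 on the opposite strand. Whether the counting used the strand is not given in the sources used here, so reads of both genes may be mixed. Syn3 had 14.5 to 19.9 CPM in naïve, 18.4 to 28.9 in vehicle and 27.6 to 33.5 in TD139 mice.

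Compared per length of the transcript, Timp2 had the highest level of the 10 genes in every group, followed by Timp3. In naïve mice Timp2 had 31.3 ± 1.96 CPM per kb, Timp3 15.8 ± 3.38 and Timp1 1.10 ± 0.257 (SD, n = 3). In vehicle mice these were 64.3 ± 1.10, 27.7 ± 4.26 and 24.4 ± 15.9 CPM per kb, and the ranges of Timp3 and Timp1 overlapped. Timp1 was at rank 9 of the 10 genes in naïve and in TD139 mice and at rank 3 in vehicle mice, where its range also overlapped with that of Mmp14 at the next rank. As a share of the summed per-length level of the 4 TIMP genes, Timp1 was 3.28, 1.86 and 1.85% in naïve mice, 13.3, 15.2 and 31.3% in vehicle mice and 2.31, 1.01 and 0.681% in TD139 mice. Timp2 remained the largest share in each mouse, from 47.2 to 68.6%. The sum itself was 42.4 to 51.7 CPM per kb in naïve, 102 to 136 in vehicle and 46.0 to 74.5 in TD139 mice. Timp4, the remaining TIMP gene, was at 0.0200 to 0.199 CPM per kb and at 3 to 31 counts, with no call in any comparison.

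**Figure D2:**
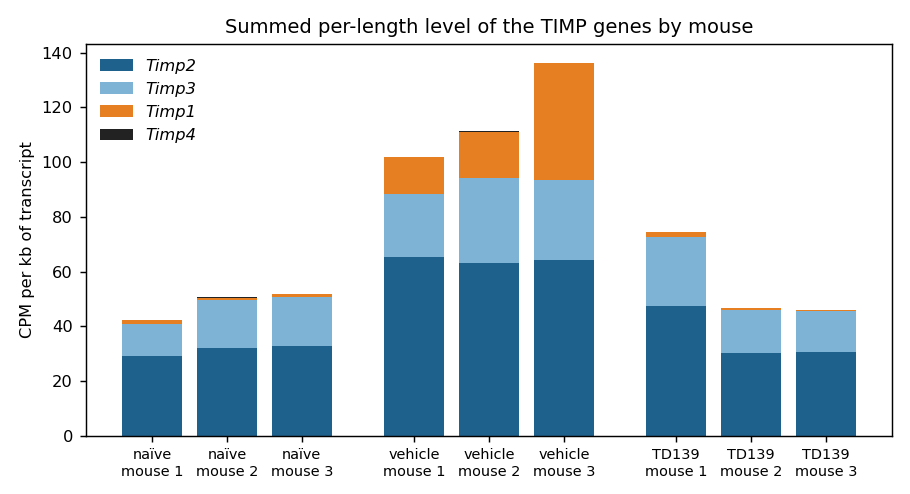
Level of Timp2, Timp3, Timp1 and Timp4 in CPM per kb of transcript, stacked for each of the 9 mice. The bars of vehicle mice reach 102 to 136, above the 42.4 to 74.5 of all other mice, and Timp1 forms a visible part in vehicle mice.

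The gelatinases cut denatured collagen and basement membrane collagen. Mmp2 (chr8:92827291-92853420, plus strand) had 4.38, 3.58 and 3.59 CPM in naïve, 6.61, 8.37 and 6.75 CPM in vehicle, and 4.37, 3.34 and 4.50 CPM in TD139 mice. Its vehicle mice lay above both other groups, which overlapped. The log2 fold change was 0.91 ± 0.20 (adjusted p = 0.0269) for vehicle against naïve and −0.83 ± 0.20 (adjusted p = 0.0123) for TD139 against vehicle. Leaving out any 1 naïve or vehicle mouse raised the adjusted p of the first above the threshold, to between 0.0568 and 0.0971, and leaving out TD139 mouse 2 raised that of the second to 0.0606. Without vehicle mouse 2, the highest for Mmp2, the first was 0.79 (adjusted p = 0.0604). The first was also not called with the first flow cell run alone (0.0525). The second was not called with an offset for transcript length and GC content together with a replicate block (0.0513). Mmp9 (chr2:164940780-164955850, plus strand), the gelatinase that neutrophils store and other cells induce, had 10.8, 11 and 12.9 CPM in naïve, 11.5, 14.8 and 14.2 CPM in vehicle, and 11.1, 10.5 and 13.6 CPM in TD139 mice. The 3 groups overlapped. Its log2 fold change for vehicle against naïve was 0.22, with a 95% interval from −0.13 to 0.57, and for TD139 against vehicle −0.20, from −0.55 to 0.15. Per length, Mmp9 exceeded Mmp2 in every group, at 3.64 ± 0.367 against 1.25 ± 0.149 CPM per kb in naïve mice. The 7 neutrophil markers present summed to 0.0384 to 0.538 CPM in any mouse, near the limit of detection.

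Of the membrane-type proteases, Mmp14 (chr14:54431612-54445364, plus strand) had 21.6, 15.8 and 14.9 CPM in naïve, 31.0, 26.6 and 45.4 CPM in vehicle, and 19.7, 14.0 and 17.0 CPM in TD139 mice. Vehicle-treated mouse 3 was the highest, and no vehicle mouse overlapped with another group. The log2 fold change was 0.98 ± 0.22 (adjusted p = 0.0278) for vehicle against naïve and −1.02 ± 0.22 (adjusted p = 0.00830) for TD139 against vehicle. Without naïve mouse 1, 2 or 3 the first had adjusted p of 0.0559, 0.102 and 0.0825, without vehicle mouse 1 0.0640 and without vehicle mouse 3 0.0870. The second was called in each fit that left out 1 mouse. Mmp15 (chr8:95352268-95375080, plus strand), the related MT2-MMP, had 22.9, 20.4 and 17.4 CPM in naïve, 27.3, 27.3 and 17.3 CPM in vehicle, and 23.9, 21.1 and 29.1 CPM in TD139 mice. Vehicle-treated mouse 3, the highest for Mmp14, was the lowest of all mice for Mmp15, and the 3 groups overlapped. Mmp15 had a log2 fold change of 0.25, with a 95% interval from −0.18 to 0.67, for vehicle against naïve and 0.04, from −0.38 to 0.46, for TD139 against vehicle.

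Among the proteases, the ADAMTS genes differed most between vehicle mice, with standard deviations of 63.5 and 82.2% of the mean, against at most 28.6% for the other proteases. Adamts1 (chr16:85793827-85803113, minus strand), which encodes a protease of versican and aggrecan, had 20.3, 23.7 and 29.7 CPM in naïve, 39.7, 33.7 and 100.1 CPM in vehicle, and 32, 27.3 and 41.8 CPM in TD139 mice. All vehicle mice exceeded the naïve mice, and vehicle mouse 3 had 2.73 times the mean of the other 2. The log2 fold change for vehicle against naïve was 1.23 ± 0.41 (adjusted p = 0.102), and it was 0.58 without vehicle mouse 3 (adjusted p = 0.133) and 1.51 without vehicle mouse 2 (adjusted p = 0.0468). For TD139 against vehicle it was −0.78 ± 0.41 (adjusted p = 0.168), and −0.13 without vehicle mouse 3 (adjusted p = 0.664). Adamts4 (chr1:171250421-171260637, plus strand), an aggrecanase, had 15, 9 and 19 counts in naïve, 20, 111 and 44 counts in vehicle, and 33, 20 and 17 counts in TD139 mice. These are 0.576, 0.339 and 0.696 CPM, then 0.715, 3.92 and 1.48 CPM, then 1.22, 0.696 and 0.672 CPM. The highest mouse was vehicle mouse 2, which is also the mouse with the lens and fibroblast RNA, with Dcn at 10.1 CPM against 0 to 0.660 CPM in the others, and the part of these in the result was not tested. The log2 fold change of 1.91 ± 0.59 (adjusted p = 0.0667) for vehicle against naïve became 1.02 without that mouse (adjusted p = 0.228), and −1.23 ± 0.56 for TD139 against vehicle (adjusted p = 0.107) became −0.34 (adjusted p = 0.623). Without vehicle mouse 1 the latter was −1.63 and was called, with adjusted p = 0.0364. With all mice kept, DESeq2 called Adamts1 (adjusted p = 0.0403) and Adamts4 (0.0237) for vehicle against naïve, and limma called Adamts4 (0.0295).

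Adam17 (chr12:21323509-21373632, minus strand) encodes TACE, the sheddase that releases TNF and the TNF receptors from the cell surface. It had 23.4, 21.5 and 26.0 CPM in naïve, 22.0, 24.5 and 22.0 CPM in vehicle, and 22.0, 28.5 and 28.7 CPM in TD139 mice. The groups overlapped in every comparison. Its log2 fold change was −0.05 for vehicle against naïve, with a 95% interval from −0.34 to 0.24, and 0.21 for TD139 against vehicle, from −0.08 to 0.50. With an offset for transcript length and GC content the latter was −0.01.

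Of the 10 genes, 4 (Timp1, Timp2, Mmp2 and Mmp14) were called higher in vehicle than in naïve mice at an adjusted p under 0.05, beside 4.91% of all tested genes, and 0 were called lower, beside 2.89%. In TD139 against vehicle mice the same 4 were called lower, beside 16.2% of all genes, and 0 higher, beside 17.2%. In TD139 against naïve mice 0 of the 10 were called, beside 2.72% of all genes higher and 2.38% lower, and 0 had an unadjusted p under 0.05, beside 4492 of the 15196 genes. In that comparison DESeq2 called 0, beside 17.0% of all genes, and limma 1, Adam17, beside 36.0%. DESeq2 called 7 for vehicle against naïve, beside 15.9% of all genes in either direction, and 5 for TD139 against vehicle, beside 38.6%. Limma called 6 and 5, beside 22.5% and 46.2%. The groups did not overlap, with vehicle mice higher than naïve mice, for 7 of the 10 genes, beside 16.7% of all genes higher and 16.6% lower. TD139 mice were lower than vehicle mice without overlap for 4, beside 25.4% of all genes, and higher for 0, beside 26.0%. TD139 and naïve mice overlapped for all 10 genes, beside 15.3% of all genes without overlap higher and 16.8% lower. The median log2 fold change of the 10 was 0.94, −0.81 and 0.18 in the 3 comparisons, and the median over all tested genes was −0.002, −0.02 and −0.002. Without naïve mouse 1, 2 or 3 the calls for vehicle against naïve were 1, 0 and 1, beside 0.591%, 0.00647% (1 gene) and 1.41% of all genes in either direction. They were 2 without vehicle mouse 1 or 3, beside 1.62% and 0.547%, so the calls of most genes were lost in these fits as well. The calls for TD139 against vehicle were 3 to 5 with any 1 mouse left out, beside 10.5 to 38.4% of all genes. Since the genes were selected with these comparisons known, nothing is read from these counts. Timp1 alone among the 10 had a log2 fold change beyond 2 in size.

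**Figure D3:**
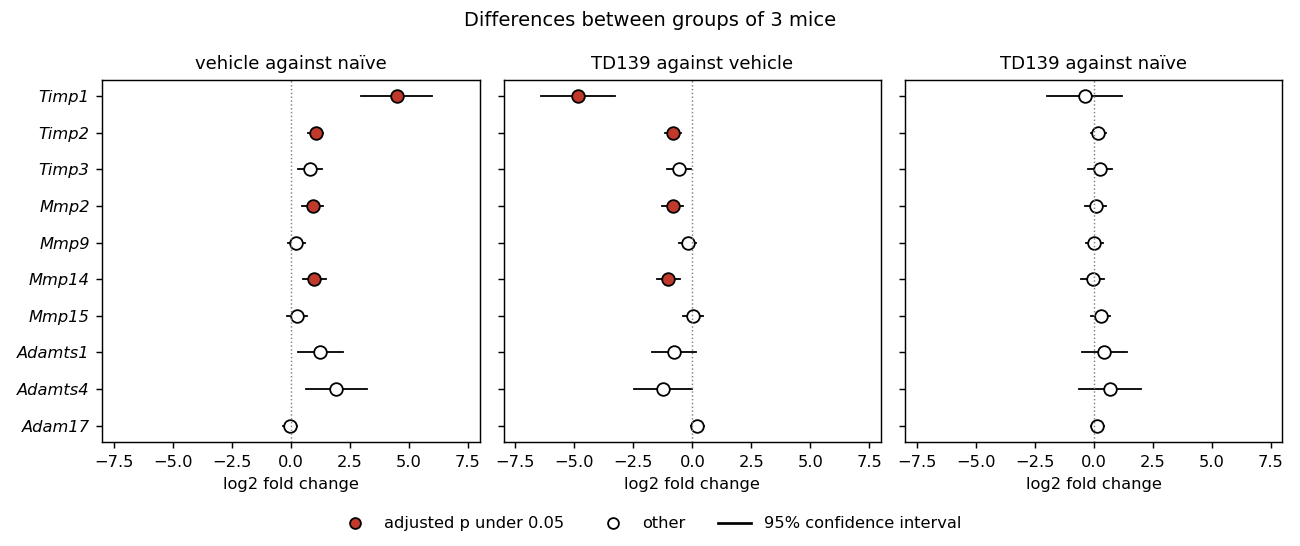
Log2 fold change of each of the 10 genes in the 3 comparisons, with 95% confidence intervals as lines and filled points for an adjusted p under 0.05. Timp1 lies at 4.47 and −4.86, Timp2, Mmp2 and Mmp14 at about 1 in size in the first 2 comparisons, and the intervals of all 10 genes include 0 for TD139 against naïve.

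The other genes of these families were taken by symbol. Of 75 such genes, 42 passed the filter. In vehicle against naïve mice, 3 were called higher and 1 lower, beside the 4.91% and 2.89% of all genes given above, with a median log2 fold change of 0.12. Mmp12, the elastase of macrophages, had 3, 1 and 5 counts in naïve, 61, 25 and 87 in vehicle, and 20, 5 and 3 in TD139 mice, so its naïve level was about the limit of detection. Its log2 fold change was 4.10 ± 0.77 (adjusted p = 0.0203) for vehicle against naïve and −2.52 (adjusted p = 0.0168) for TD139 against vehicle. It moved in the direction of the microglia and macrophage markers, of which 6 of 12 were called higher, beside 4.91% of all genes, and then 9 of 12 lower, beside 16.2%, and their part in the result was not tested. Adamtsl4, which encodes a fibrillin-binding protein without protease activity, had 9.27 to 11.6 CPM in naïve and 19.2 to 31.1 CPM in vehicle mice and was at 6.30 to 11.1 CPM in TD139 mice. Its log2 fold changes were 1.29 (adjusted p = 0.0189) and −1.46 (adjusted p = 0.00568). Adamts5, the other main aggrecanase, had 20.1 to 24.5 CPM in naïve, 34.3 to 58.5 in vehicle and 26.7 to 32.7 in TD139 mice, and was called only in the first comparison (0.93, adjusted p = 0.0247), though not with an offset for transcript length and GC content (0.94, adjusted p = 0.0530). Adam1a, known from sperm, was the 1 gene called lower (−0.57, adjusted p = 0.0359), but its call was lost when any 1 naïve or vehicle mouse or TD139 mouse 2 was left out (adjusted p 0.0528 to 0.122). It was also lost with library size scaling (0.0572), with the replicate block (0.0550) and with either flow cell run alone (0.0567 and 0.0591). Without vehicle mouse 2, 4 genes of these families were called higher, in a fit with 6.35% of all genes called in either direction.

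For TD139 against vehicle, 3 of the 42 were called higher (Adamts3, Adam9 and Adam1a) and 2 lower (Mmp12 and Adamtsl4), beside 17.2% and 16.2% of all genes, with a median of 0.05. Adamts3, a procollagen N-proteinase, had 37.6 to 54.3 CPM in vehicle and 70.4 to 92.8 CPM in TD139 mice (log2 fold change 0.81, adjusted p = 0.00568). Adam9 had 86.8 to 109.7 CPM and 107 to 176 CPM (0.56, adjusted p = 0.0272) and was not called with the offset for length and GC content (0.42, adjusted p = 0.0693). Adam1a had 12.4 to 14.6 CPM and 20.6 to 27.2 CPM (0.88, adjusted p = 0.00567). For TD139 against naïve, Adamts9 (1.35, adjusted p = 0.0478) and Adam22 (0.62, adjusted p = 0.0431) were called higher and 0 genes lower, beside 2.72% and 2.38%. With that offset their log2 fold changes were 0.99 and 0.62, and 0% of all genes were called in that fit. Among the most abundant genes of each family, those called in no comparison were Mmp24 and Mmp17 among the matrix metalloproteinases, Adamts10, Adamtsl5, Adamtsl2 and Adam11. Mmp24 had 30.4 to 37.4 CPM and Mmp17 24.5 to 30.9 CPM over the 9 mice. Mmp11 had 2.35 to 3.99 CPM in naïve and 5.43 to 5.90 CPM in vehicle mice without a call (adjusted p = 0.109). Among genes that did not pass the filter, Mmp8, the collagenase of neutrophils, had 0 counts in naïve mice, 14, 1 and 8 in vehicle and 3, 0 and 0 in TD139 mice, and Mmp3 had 26 counts in vehicle mouse 2 and 0 to 4 in the others. The calls depended on single mice. For vehicle against naïve, 0 of these family genes were called without naïve mouse 1, 2 or 3 or vehicle mouse 3, and 2 without vehicle mouse 1, while those fits called 91, 1, 217, 84 and 249 of all genes, in that order. For TD139 against vehicle, 3 were called without vehicle mouse 3 or TD139 mouse 2 or 3, beside 16.4%, 10.5% and 12.4% of all genes in either direction, and 8 without TD139 mouse 1, beside 38.4%. The number for TD139 against naïve was 0 without naïve mouse 1 or 2, vehicle mouse 2 or TD139 mouse 2 or 3, where 0% of all genes were called, and 0 without vehicle mouse 3, beside 3.05% of all genes. It was 1 without vehicle mouse 1, 4 without naïve mouse 3 and 6 without TD139 mouse 1, beside 2.73%, 17.4% and 10.7%.

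**Figure D4:**
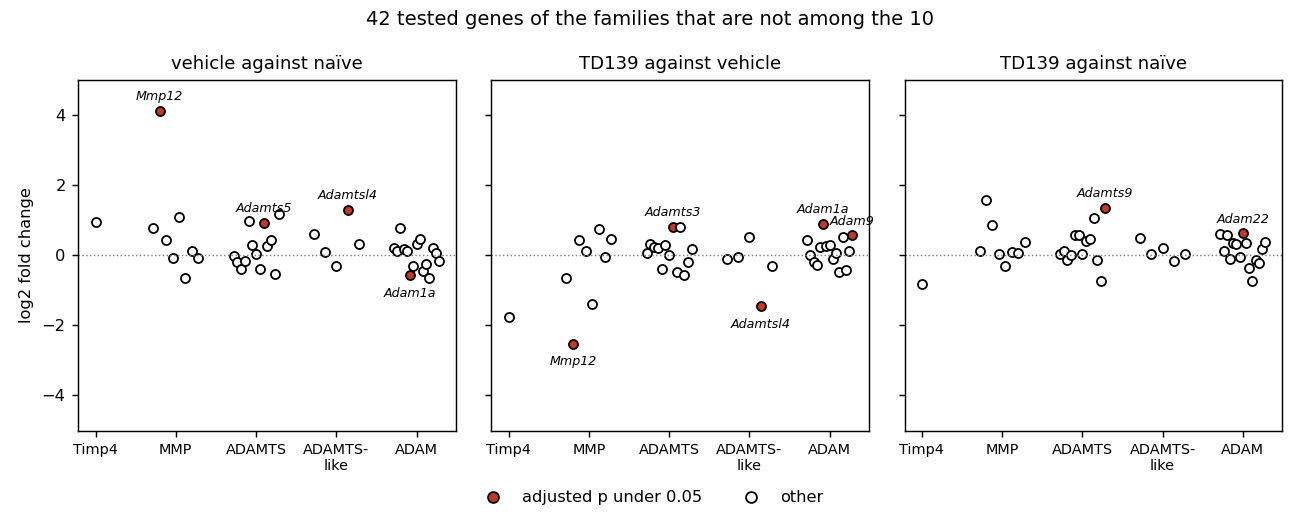
Log2 fold change of the 42 tested family genes that are not among the 10, by family and comparison, with filled and named points for an adjusted p under 0.05. The highest point is Mmp12 at 4.10 for vehicle against naïve and the lowest is Mmp12 at −2.52 for TD139 against vehicle.

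Genes that activate, dock or clear these proteases are Furin, Pcsk5, Pcsk6, Plau, Plaur, Plat, Bsg, Lrp1, Cd44 and Cd63, of which 9 passed the filter. For vehicle against naïve, 4 were called higher and 0 lower, beside 4.91% and 2.89% of all genes, with a median of 0.42. In TD139 against vehicle mice 5 were called lower and 0 higher, beside 16.2% and 17.2%, with a median of −0.56. Plau, the urokinase that generates plasmin, had 0.550 to 1.02 CPM in naïve, 9.11 to 15.4 CPM in vehicle and 0.751 to 3.34 CPM in TD139 mice. Its log2 fold changes were 3.88 (adjusted p = 0.0127) and −2.78 (adjusted p = 0.00604). Cd44, the hyaluronan receptor that binds MMP9 and MMP14, had 19.7 to 26.8, 49.8 to 132 and 25.2 to 37.9 CPM, with log2 fold changes of 1.95 (adjusted p = 0.0235) and −1.54 (adjusted p = 0.0131). Cd63, which encodes the tetraspanin that binds TIMP1 at the cell surface, had 57.5 to 65.5, 124 to 167 and 44.6 to 64.8 CPM, with 1.14 (adjusted p = 0.0127) and −1.40 (adjusted p = 0.0050). Lrp1, the endocytic receptor for several of these proteases, was called higher in vehicle (0.42, adjusted p = 0.0279) and in TD139 mice (0.49, adjusted p = 0.0406) than in naïve mice, the latter at 0.10 with the offset for length and GC content, in a fit that called 0% of all genes. Bsg, the inducer of matrix metalloproteinases also called EMMPRIN, was called lower in TD139 than in vehicle mice (−0.49, adjusted p = 0.00936), but with that offset its sign changed, to 0.04 (adjusted p = 0.786). Without naïve mouse 1, 2 or 3 the calls for vehicle against naïve were 1, 0 and 2, and without vehicle mouse 1 they were 2, beside 0.591%, 0.00647%, 1.41% and 1.62% of all genes in either direction. Without TD139 mouse 2 or 3 the calls for TD139 against vehicle were 3, beside 10.5% and 12.4% of all genes, and without TD139 mouse 1 they were 6, beside 38.4%. The call of Lrp1 for TD139 against naïve was lost without naïve mouse 1 or 2, vehicle mouse 2 or TD139 mouse 2 or 3.

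A list of 11 further genes held inhibitors and also Pcolce and Pcolce2, which encode enhancers of procollagen C-proteinase. Of these 11 genes, 9 passed the filter. In vehicle against naïve mice 4 of them, Pcolce2 included, were called higher, beside 4.91% of all genes, with a median of 0.70. A2m, which encodes the circulating trap α2-macroglobulin, had 9.64 to 12.1, 44.2 to 71.3 and 7.31 to 17.4 CPM in naïve, vehicle and TD139 mice. Its log2 fold changes were 2.34 (adjusted p = 0.0127) and −2.38 (adjusted p = 0.0050). Serpine2, an inhibitor of plasminogen activators, had 13.6 to 16.3, 23.5 to 24.9 and 11.1 to 15.8 CPM, with 0.70 (adjusted p = 0.0247) and −0.87 (adjusted p = 0.00568). For TD139 against vehicle, 4 were called lower and 1, the testican gene Spock2, higher (0.47, adjusted p = 0.0172), beside 16.2% and 17.2% of all genes, with a median of −0.19. The enhancer genes Pcolce and Pcolce2 were both among those called lower. Pcolce (−1.77, adjusted p = 0.0315) was highest in vehicle mouse 2, at 43.4 CPM against 17.7 and 19.5 CPM in the other vehicle mice. Without that mouse its adjusted p was 0.0682. Its call was also lost without naïve mouse 1 or 3, vehicle mouse 3 or TD139 mouse 2 or 3 (0.0520 to 0.111), without a filter (0.0531), with only the 2 groups compared (0.0747), with the replicate block (0.0572) and with the offset for length and GC content (0.0833). The testicans Spock1 and Spock3 had 34.8 to 55.1 and 27.9 to 55.0 CPM, and Spock1 was called higher in vehicle (0.38, adjusted p = 0.0456) and in TD139 (0.43, adjusted p = 0.0458) than in naïve mice. The former call was lost without any 1 naïve or vehicle mouse (0.0622 to 0.135) and without TD139 mouse 2 or 3 (0.0576 and 0.0550). It was also lost without a filter (0.0506), with the replicate block (0.0717) and with the second flow cell run alone (0.0879). Without naïve mouse 1 or 2, 0 genes of this list were called for vehicle against naïve, beside 0.591% and 0.00647% of all genes in either direction, and without naïve mouse 3 or vehicle mouse 1 or 3 there was 1, beside 1.41%, 1.62% and 0.547%. Without vehicle mouse 2 Spock1 was not called (adjusted p = 0.0749), and 5 genes were called without TD139 mouse 1, beside 6.35% and 12.8%. For TD139 against vehicle, 2 were called lower without vehicle mouse 3 or TD139 mouse 2 or 3, beside 16.4%, 10.5% and 12.4%, and the call of Spock2 was lost in the same fits (adjusted p = 0.0521, 0.0581 and 0.0762). The call of Spock1 for TD139 against naïve was lost without any mouse other than naïve mouse 3.

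Among 15 partners and substrates of ADAM17, 12 passed the filter. Of these, 3 were called higher for vehicle against naïve, and for TD139 against vehicle 6 were called lower, with medians of 0.42 and −0.71, and 0 in the opposite directions. The shares of all genes were 4.91% and 16.2%. In TD139 against naïve mice, edgeR called 0, with 0 at an unadjusted p under 0.05 (4492 of all 15196 genes), while DESeq2 called 0 (17.0% of all genes) and limma 2 (36.0%). Tnfrsf1a, which encodes a TNF receptor, had 8.84 to 14.3, 38.5 to 78.5 and 6.33 to 17.5 CPM (log2 fold changes 2.17, adjusted p = 0.0302, and −2.33, adjusted p = 0.00932). Its call for vehicle against naïve was lost with the replicate block (2.12, adjusted p = 0.0560). Vcam1, an adhesion molecule, had 8.10 to 9.46, 27.9 to 37.3 and 6.58 to 15.2 CPM (1.93, adjusted p = 0.0127, and −1.71, adjusted p = 0.00567). Csf1r, which is also one of the microglia markers, had 7.61 to 10.4, 29.9 to 38.0 and 6.36 to 18.6 CPM (1.88, adjusted p = 0.0216, and −1.56, adjusted p = 0.0107). The neuronal chemokine gene Cx3cl1, the most abundant of the list, had 121 to 149 CPM over all mice and no call. Without naïve mouse 1 or 2, 0 were called for vehicle against naïve, and without naïve mouse 3 or vehicle mouse 1 or 3 there was 1, in fits with 0.591%, 0.00647%, 1.41%, 1.62% and 0.547% of all genes called. Without TD139 mouse 2 the calls for TD139 against vehicle were 3, beside 10.5% of all genes. They were 4 without naïve mouse 2, vehicle mouse 2 or 3 or TD139 mouse 3, beside 27.7%, 24.5%, 16.4% and 12.4%.

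Of 16 proteoglycan, link protein and other matrix genes, many of them substrates of these enzymes, 15 passed the filter. Cspg5, the neuroglycan C gene, was the 1 called for vehicle against naïve, beside 4.91% of all genes, at 168 to 174 CPM in naïve and 248 to 298 CPM in vehicle mice (0.65, adjusted p = 0.0127). The list's median was 0.14, and 3 were called higher and 1 lower without TD139 mouse 1, in a fit with 12.8% of all genes called, against 7.80% with all mice. For TD139 against vehicle, 4 were called higher and 2 lower, near the 17.2% and 16.2% of all genes, with a median of −0.04. Impg1 and Impg2, which encode the main proteoglycans of the interphotoreceptor matrix and are made by photoreceptors, had 126 to 197 and 146 to 196 CPM in vehicle mice and 254 to 389 and 209.6 to 399 CPM in TD139 mice (0.91, adjusted p = 0.00693, and 0.90, adjusted p = 0.0148). The 8 rod markers summed to 39474 to 54915 CPM in vehicle and 56203 to 70008 CPM in TD139 mice, in the same direction, and their part was not tested. Tnr, the tenascin of perineuronal nets, was called higher in TD139 mice than in both other groups (0.80, adjusted p = 0.00719 against vehicle, and 0.93, adjusted p = 0.0406 against naïve). With the offset for length and GC content, neither Tnr (0.29 and 0.44) nor Impg2 (0.42, adjusted p = 0.0945) was called, while 21.5% of all genes were called for TD139 against vehicle and 0% for TD139 against naïve. Cspg5 (−0.87, adjusted p = 0.0050) and Cspg4, a pericyte proteoglycan (−1.0, adjusted p = 0.0412), were called lower in TD139 than in vehicle mice, and Cspg4 was not called without any 1 vehicle mouse or without TD139 mouse 2 or 3. The call of Cspg5 for vehicle against naïve was lost without naïve mouse 2, and that of Tnr for TD139 against naïve without naïve mouse 1 or 2, vehicle mouse 2 or TD139 mouse 2 or 3. With vehicle mouse 3 or TD139 mouse 2 or 3 left out, the call of Impg2 was lost.

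Cytokines and transcription factors known to act on Timp1 in other cells formed a list of 17 genes, of which 14 passed the filter. For vehicle against naïve, 5 were called higher and 0 lower, beside 4.91% and 2.89% of all genes (median 0.73), and for TD139 against vehicle 8 were called lower and 0 higher, beside 16.2% and 17.2% (median −0.98). Socs3, the feedback inhibitor of STAT3 signalling, had 3.27, 5.39 and 4.91 CPM in naïve, 15.8, 15.9 and 48.2 CPM in vehicle, and 6.49, 3.48 and 3.20 CPM in TD139 mice. Its log2 fold changes were 2.56 (adjusted p = 0.0260), which was not called with the replicate block (2.43, adjusted p = 0.0519), and −2.60 (adjusted p = 0.00840). As for Timp1, Mmp14 and Adamts1, vehicle mouse 3 was its highest mouse. Fosl1, the AP-1 subunit FRA1, had 2, 2 and 19 counts in naïve, 86, 34 and 182 in vehicle, and 5, 4 and 4 in TD139 mice (3.58, adjusted p = 0.0297, and −4.39, adjusted p = 0.00710). Runx1 had 0.183 to 0.384, 1.57 to 3.43 and 0.348 to 0.630 CPM (2.87, adjusted p = 0.0142, and −2.32, adjusted p = 0.00641). Stat3 (−1.09, adjusted p = 0.0265) and Junb (−1.17, adjusted p = 0.00756) were called lower in TD139 than in vehicle mice and were not called for vehicle against naïve. Jun had 47.8 to 58.4 CPM over all mice and no call. Of the calls for vehicle against naïve, 2 were made without naïve mouse 1 or vehicle mouse 3 and 0 without naïve mouse 2, beside 0.591%, 0.547% and 0.00647% of all genes in either direction. The count for TD139 against vehicle was 6 to 9 with any 1 mouse left out, beside 10.5 to 38.4%. Between TD139 and naïve mice edgeR called 0, with 1 at an unadjusted p under 0.05 (4492 of all 15196 genes), and DESeq2 and limma each called 1 (17.0% and 36.0% of all genes). The call of Stat3 was lost without vehicle mouse 3 or TD139 mouse 2 or 3.

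The 5 genes whose log2 CPM over the 9 mice lay closest to that of Timp1, each centred on its own mean, were Nupr1, Serpina3m, Serpina3n, Ifi202b and Ly9, with root mean square differences of 0.38, 0.46, 0.49, 0.60 and 0.63, against a median of 2.27 over 15195 genes. The values are a description of likeness over 9 mice of 3 groups. Profiles were centred but not scaled, so a gene with even levels differs from Timp1 by about the spread of Timp1 itself. The median is therefore no measure of likeness. Features that these genes share with Timp1 follow in part from their choice as the nearest. Nupr1, a stress-induced nuclear protein gene, had 5.61, 5.05 and 4.44 CPM in naïve, 59.7, 95.8 and 108 CPM in vehicle, and 5.89, 1.74 and 2.25 CPM in TD139 mice. Serpina3n, a serine protease inhibitor gene of reactive glia, had 10.8, 15.1 and 17.4 CPM, then 148, 132 and 432 CPM, then 35.9, 8.18 and 6.84 CPM. In both, as in Timp1, the vehicle mice did not overlap with the other groups, vehicle mouse 3 was the highest mouse, and TD139 mouse 1 was the highest of its group. Reads of Serpina3m and Serpina3n, members of a family of near-identical copies, may have been split by the counting. Ifi202b and Ly9 had at most 5.64 and 2.25 CPM, and both were at 0 in TD139 mice 2 and 3.

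Levels of the 10 genes and of marker sums are set side by side for each mouse. Gfap, the intermediate filament gene of astrocytes and reactive Müller glia, had 26.6 to 44.7 CPM in naïve, 89.6 to 321 CPM in vehicle and 11.8 to 43.5 CPM in TD139 mice, and vehicle mouse 3 was the highest, as for Timp1, Mmp14 and Adamts1. Of the other astrocyte markers, Igf2, which exceeded Gfap in all naïve and TD139 mice, had 58.0 to 67.7 CPM in naïve, 88.6, 83.6 and 65.5 CPM in vehicle mice 1, 2 and 3, and 64.8 to 87.0 CPM in TD139 mice. S100b had 10.8 to 14.4, 11.9 to 12.4 and 7.38 to 12.4 CPM, and Pax2 1.17 to 1.88, 1.18 to 2.79 and 1.08 to 1.66 CPM. Of the 8 Müller glia markers, which summed to 4413 to 4971, 5888 to 6373 and 4939 to 5875 CPM, 4 were called higher for vehicle against naïve, beside 4.91% of all genes, and 2 lower for TD139 against vehicle, beside 16.2%. Of the 8 endothelial markers 0 were called for vehicle against naïve and 1 lower for TD139 against vehicle, beside the same shares. Their sum was mostly Kdr, at 138 to 211, 277 to 428 and 190.2 to 419 CPM, with TD139 mouse 1 the highest of its group, as for Timp2 and Timp3, while Pecam1 had 9.12 to 10.4, 8.72 to 11.1 and 6.64 to 8.14 CPM. The 7 pericyte and smooth muscle markers summed to 51.1 to 52.9, 52.0 to 67.5 and 57.8 to 67.9 CPM. The part of these cells in the levels of the 10 genes was not tested.

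**Figure D5:**
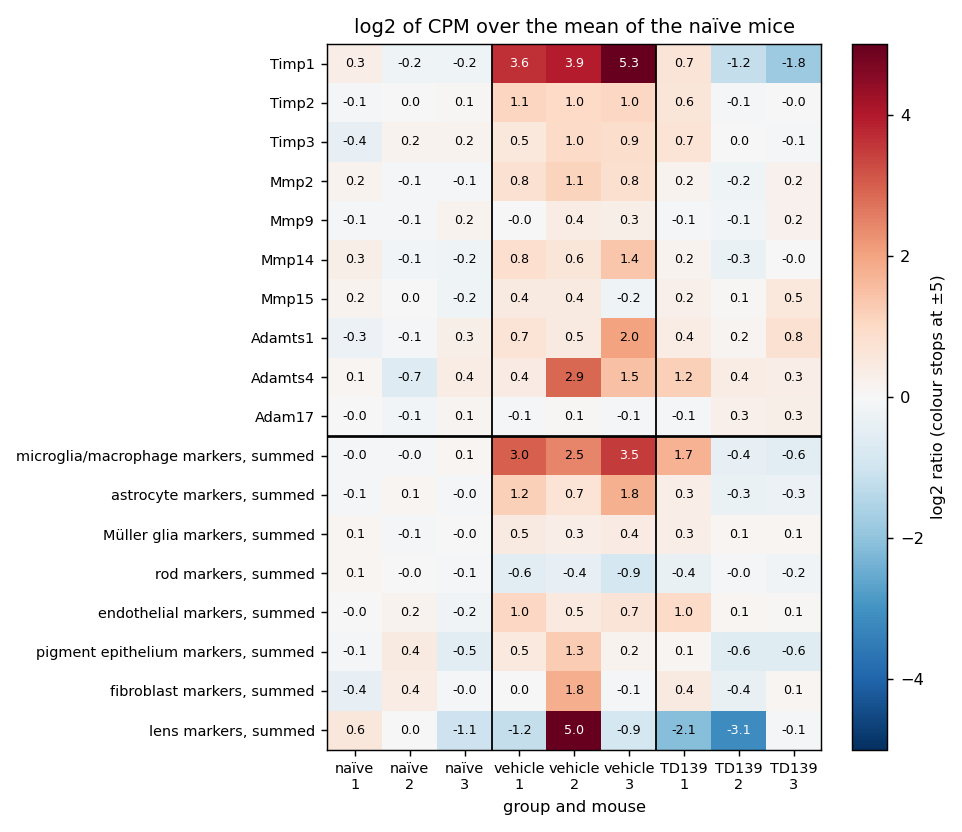
Log2 ratio of the CPM in each mouse to the mean of the 3 naïve mice, for the 10 genes and for 8 summed marker lists, with the value printed in each cell. Vehicle mice are above the naïve mean for Timp1, Timp2, Timp3, Mmp2, Mmp14, Adamts1 and Adamts4. They are also above it for the microglia and macrophage, astrocyte, Müller glia, endothelial and pigment epithelium markers, and below it for the rod markers. Vehicle mouse 2 alone is high for lens and fibroblast markers. The largest parts of the astrocyte sum are Gfap and Igf2, and that of the endothelial sum is Kdr.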

How the data were processed

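RNA of whole retinas from 9 BALB/cJ mice, 3 in each of 3 groups named by the labels, was sequenced on an Illumina NextSeq after Illumina Stranded mRNA Prep. The authors aligned the reads to mm10 with BaseSpace RNA Express and deposited raw counts per gene symbol, 1 table for each of 2 flow cell runs of a mouse. The strand setting of the counting is not given in the sources used here. Runs of a mouse were summed, since they differed far less (chi-square per degree of freedom at most 1.8) than mice of a group (at least 16.75). Each mouse then had 26171887 to 30201517 counted reads, and intervals for counts cover counting error only.

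Counts were fitted with edgeR 4.0.16 in R 4.3.3 (filterByExpr, TMM, robust quasi-likelihood test, 1 fit of all 3 groups), and p-values were adjusted by Benjamini-Hochberg over all 15196 tested genes. Genes with an adjusted p under 0.05 were called. The p-values measure the spread between these mice. Transcript lengths came from GENCODE M21 on GRCm38. On simulated data for vehicle against naïve, the fit found 200 of 200 genes changed by 2 on the log2 scale, with 9 false calls among 15079 genes. Recovery of changes smaller than 2, such as the 1.04, 0.91 and 0.98 of Timp2, Mmp2 and Mmp14 in that comparison, was not tested.

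The 10 genes and the gene lists were chosen with earlier results of these data known. Beside the 10, the text names in each list genes that were called and the most abundant uncalled genes, and the 5 genes nearest to Timp1. Alternatives used RLE or library size scaling, DESeq2 1.42.0, limma 3.58.1 with quality weights, other filters, only the 2 groups compared, single flow cell runs, a replicate block, an offset for transcript length and GC content, and each mouse left out in turn.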

Additional observations from a re-analysis of the deposited data

How the results depend on the processing

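Under 21 alternatives, of which 9 left out 1 mouse each, the 630 log2 fold changes of the 10 genes included none that was called and changed sign. A different sign appeared in 24 values, none of them called and none with a size over 0.38 in the reported fit. For vehicle against naïve, DESeq2 called 7 of the 10 genes instead of 4 (15.9% of all genes), and 0 to 5 were called with 1 mouse left out. For TD139 against naïve, limma called 1 instead of 0 (36.0% of all genes). Among the other family genes, limma called 9 instead of 4, 12 instead of 5 and 9 instead of 2 in the 3 comparisons, where it called 22.5%, 46.2% and 36.0% of all genes, and with 1 mouse left out the counts were 0 to 4, 3 to 8 and 0 to 6. For TD139 against naïve, DESeq2 called 4 of them (17.0% of all genes), library size scaling, no filter and the second flow cell run alone 1 each (3.69%, 3.65% and 5.94%), and the first run alone (4.27%), only the 2 groups compared (0.00676% of all genes) and the offset for length and GC content 0 each. Of the called values of the other named genes, recomputed under the alternatives, 1016 remained called, 213 lost the call and 2, both of Bsg, changed sign without a call. The log2 fold change of Bsg for TD139 against vehicle was 0.04 with that offset, with or without the replicate block. The cause of these changes was not tested.

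The labels do not say that mouse numbers pair the samples. Of 9 same-numbered pairs, 2 had a correlation of deviations over 0.1 (range −0.259 to 0.282), and differently numbered pairs ranged from −0.281 to 0.226. Deviations from a mean of only 3 mice depend on each other, so these values cannot settle whether a pairing exists. With the replicate block, 5 of the 10 genes were called for vehicle against naïve, 4 for TD139 against vehicle and 0 for TD139 against naïve, beside 5.92%, 31.4% and 0% of all genes. Adamts1 gained a call for vehicle against naïve (log2 fold change 1.10, adjusted p = 0.0394 in edgeR), and 0 of the other family genes were called for TD139 against naïve. In that comparison 0% of all genes were called with the block, with the offset or with both. Counts of 7 to 41 for Timp1 in TD139 mice limit the precision of its fold changes.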
